A study of Mus musculus with 4 samples.

Results

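The synaptic vesicle and release machinery was followed through 46 genes, taken by gene symbol from a bulk RNA-seq count table of 55471 gene IDs. They comprise 8 synaptotagmins, Doc2b and Rph3a, 7 SNAREs, 4 complexins, 10 vesicle membrane or vesicle-associated proteins, 3 Rab3 GTPases and 12 active zone or priming proteins. All 46 were among the 17940 genes with enough reads to test. The cells were Gbx2+ amacrine cells, interneurons of the retina, from C57BL6 mice at postnatal days 6 to 7. All animals carried Gbx2-CreERT2-IRES-EGFP, an allele that places an inducible Cre and GFP under Gbx2 control, together with Ai9, a tdTomato reporter switched on by Cre. Both groups were sorted as tdTomato-labelled cells and were then divided by GFP into a GFP-negative fraction, the study's cell type 1, and a GFP-positive fraction, its cell type 2. The GFP-negative fraction has 2 libraries, numbered 2 and 6, and the GFP-positive fraction has 2, numbered 2 and 3, each made from 750 to 2500 sorted cells. The study states 4 biological replicates from 3 litters. It also states that both fractions were collected from each animal, but the fractions share only the number 2 here, so no animal pairing was used. The question put to these genes is whether the fractions differ in their release machinery, and whether paralogs known from conventional synapses and paralogs known from ribbon synapses differ in the same way.

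Neurotransmitter vesicles are filled, docked at the active zone, primed, and fused when calcium enters the terminal. Fusion is driven by SNARE proteins on the vesicle and the plasma membrane, held ready by complexins and Munc13 proteins and triggered by synaptotagmins, the calcium sensors. Most amacrine cells release GABA or glycine at conventional synapses. Rods, cones and bipolar cells use ribbon synapses, which hold vesicles on a plate of RIBEYE and prefer other paralogs: complexins 3 and 4 over 1 and 2, syntaxin 3 over syntaxin 1, SV2B beside SV2A, Munc13-2, the product of Unc13b, and RIM2. Ribbon terminals also lack synapsins. Cplx3 is in addition known from some amacrine cells. On this background 6 members were classed as ribbon paralogs (Cplx3, Cplx4, Stx3, Unc13b, Sv2b and Rims2), 9 as conventional paralogs (Cplx1, Cplx2, Stx1a, Syn1, Syn2, Syn3, Unc13a, Rims1 and Sv2a) and 31 as neither.

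The libraries held 41040667 to 44689917 counts and were of even depth. Levels are CPM, that is, counts divided by library size after TMM scaling, a correction for RNA composition. In these units 3 counts came to between 0.0630 and 0.0837 CPM, and every member was above that in every library. Values of a fraction are given below in the order GFP-negative replicates 2 and 6, GFP-positive replicates 2 and 3. Gbx2, the gene of the sorting allele, stood at 28.6 and 55.5 CPM in the GFP-negative and 602 and 496 CPM in the GFP-positive libraries, a log2 fold change of 3.71 ± 0.44 (standard error) with an edgeR adjusted p of 0.0118. Rod RNA was present in every library. The summed level of 16 rod markers was 9879 and 2402 CPM in the GFP-negative and 11218 and 19120 CPM in the GFP-positive libraries. All 16 were above 0 in each library and none passed the test between fractions. Bipolar markers (13 genes) ranked the libraries in the same order, at 1174, 460, 1415 and 2027 CPM, as did genes of the photoreceptor synapse (10 genes), at 1802, 706, 2092 and 3075 CPM. Cone markers (9 genes) summed to 444, 113, 386 and 743 CPM. The sum of a list of amacrine markers (12 genes, 5 called) ran the other way, at 4258, 6416, 2743 and 1833 CPM. Not all genes of this list mark every amacrine type. The 5 called genes were Gad1, Gad2, C1ql1, C1ql2 and Tfap2c, all lower in both GFP-positive libraries. Pax6 overlapped, at 1468, 2244, 1970 and 1285 CPM. Slc6a9 was higher in both GFP-positive libraries, at 54.3, 31.4, 85.7 and 74.7 CPM. Of the further lists, 9 Muller glia markers summed to 713 to 2068 CPM, most of it Dkk3 in the GFP-negative libraries. The 9 ganglion cell markers summed to 98.1 to 353 CPM and the 5 horizontal cell markers to 42.4 to 72.3 CPM. The 6 starburst markers summed to 51.1 to 241 CPM, mostly through Isl1. The 9 endothelial and pericyte markers summed to 64.4 to 122 CPM, mostly through Kdr, and the 8 microglia markers to 37.6 to 119 CPM. The 5 AII amacrine markers summed to 382, 408, 2445 and 2490 CPM. Nearly all of that gap was Calb2, the one called gene of that list. No gene of these lists was at 0 in every library. In these bulk libraries fewer cells of a type and less RNA per cell cannot be told apart.

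None of the 46 members passed edgeR's quasi-likelihood test at an adjusted p of 0.05, where 1.10% of all tested genes did. The smallest adjusted p of a member was 0.0617, for Syt4. At an unadjusted p under 0.05 there were 16 members with lower levels in the GFP-positive fraction, against 7.34% of all tested genes. In the other direction there were 3, against 5.24% of all tested genes. The libraries of the fractions did not overlap for 23 members that were lower in both GFP-positive libraries (21.3% of all tested genes) and for 9 that were higher in both (22.5% of all tested genes). The log2 fold change was negative for 31 members and positive for 15, with a median of -0.45, while the median of all tested genes was 0.04. DESeq2 called 7 members lower (Syt1, Syt4, Syt7, Vamp4, Syn2, Sv2c and Synpr) and 1 higher (Cplx3), where it called 3.23% and 1.16% of tested genes. Limma-voom called none of the members and 0.513% of tested genes. Having 2 libraries a fraction also limits exact permutation tests, whose p cannot go below 0.333.

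**Figure D1:**
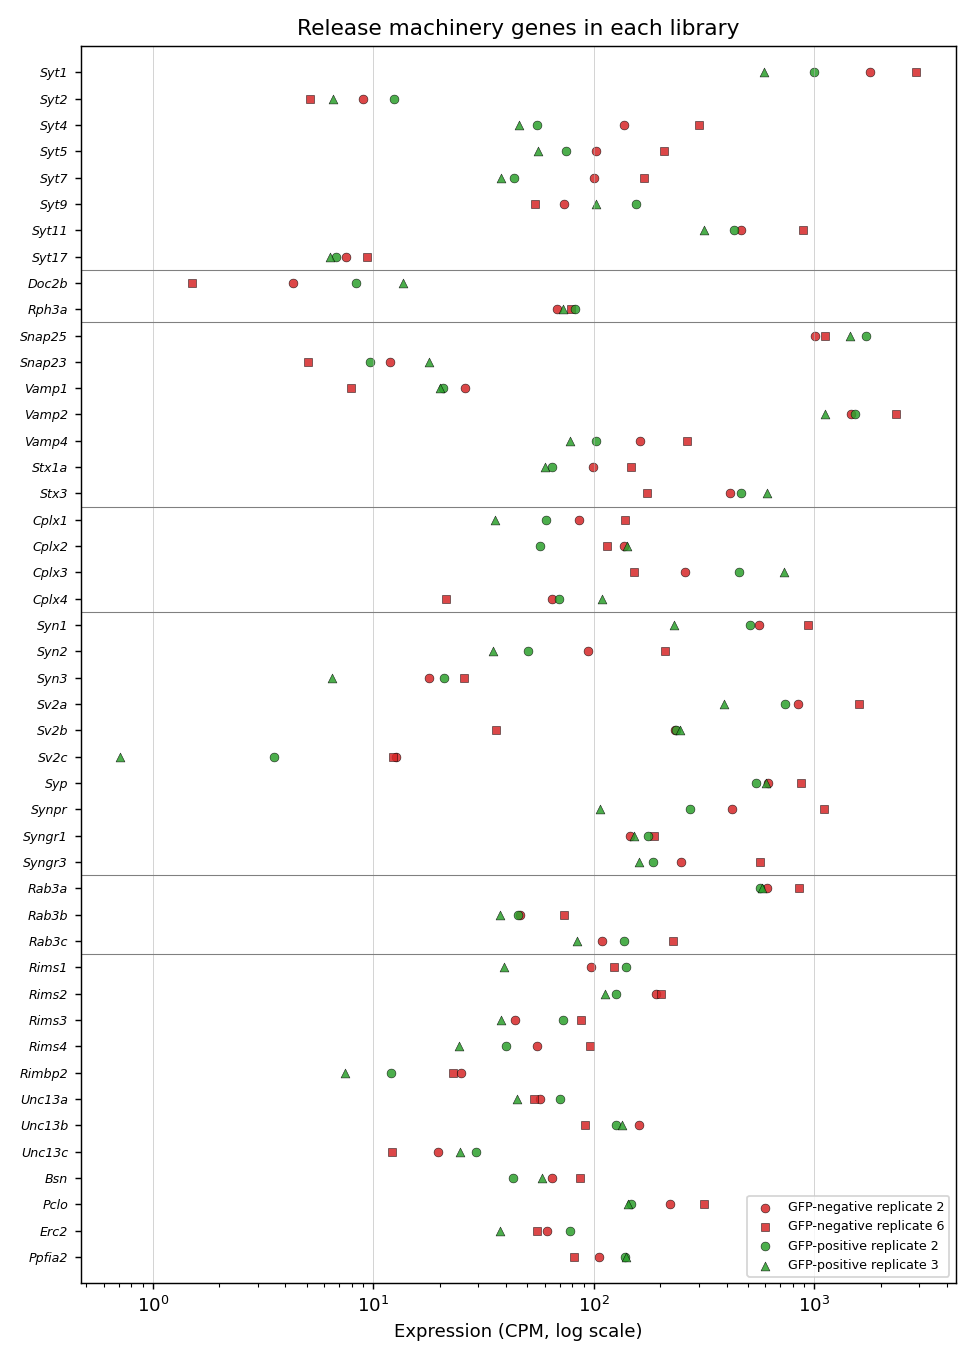
Level of each of the 46 genes in each library, in CPM on a log axis; each point is 1 library, red for GFP-negative and green for GFP-positive, and grey lines part the gene groups. Syt1, Syt4, Syt7 and Synpr have both green points to the left of both red points, Cplx3 and Syt9 have them to the right, and many members have the 2 colours mixed.

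Among the 8 synaptotagmins, 6 were lower in both GFP-positive libraries (21.3% of all tested genes) and Syt9 was higher in both (22.5% of all tested genes). Of the 6 lower ones, 4 had an unadjusted edgeR p under 0.05, as had 7.34% of all tested genes in that direction. Syt1, the main sensor of fast synchronous release, stood at 1787 and 2885 CPM in the GFP-negative and 999 and 589 CPM in the GFP-positive libraries. Its log2 fold change was -1.56 ± 0.47 (adjusted p = 0.225). Syt4, a synaptotagmin linked to regulated release of dense-core vesicles, stood at 137 and 299.9 CPM against 55.1 and 45.9 CPM. The 2 GFP-positive values lay close together and under both GFP-negative values, and the log2 fold change was -2.11 ± 0.42 (adjusted p = 0.0617). Syt7, a high-affinity sensor of asynchronous release and vesicle replenishment (chr19:10389090-10453180, GRCm38), stood at 100.1 and 169.8 CPM against 43.6 and 38.1 CPM. Its log2 fold change was -1.73 ± 0.35 (adjusted p = 0.0700). Syt5 was at 103 and 208 CPM against 74.5 and 55.9 CPM, a log2 fold change of -1.25 ± 0.39 (adjusted p = 0.247). Syt9, a fast sensor related to Syt1, was at 73.3 and 54.1 CPM against 155 and 102 CPM. Both GFP-positive values were thus the higher ones, with a log2 fold change of 1.01 ± 0.34 (adjusted p = 0.269). Syt11 ranged from 317 to 888 CPM and Syt17 from 6.39 to 9.41 CPM, each lower in both GFP-positive libraries with an unadjusted p above 0.05. Syt2, the fast sensor of many hindbrain and some retinal terminals, ranged from 5.19 to 12.4 CPM with the fractions overlapping.

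The tests of Syt4 and Syt7 sat at the edge of the threshold. With DESeq2's median-ratio size factors inside edgeR (RLE) their adjusted p were 0.0372 and 0.0454, and with upper-quartile scaling 0.0391 and 0.0490. Scaling by library size alone moved the median log2 fold change of all genes from 0.04 to 0.21 and gave Syt4 a log2 fold change of -1.91 (adjusted p = 0.0478). A filter of over 5 CPM in 2 libraries gave 0.0324 for Syt4 and 0.0379 for Syt7. Without GFP-negative replicate 2 they came to 0.0197 and 0.0341, and without GFP-negative replicate 6 to 0.408 and 0.531. Both of those fits assume that the lone GFP-negative library varies like the GFP-positive ones. Their adjusted p ranged from 1.36e-04 to 0.612 and from 6.71e-04 to 0.694 over all settings, while both log2 fold changes kept their sign, at -2.63 to -1.17 and -2.12 to -1.11.

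Doc2b, a soluble calcium sensor with C2 domains related to those of synaptotagmins, was a low-level gene at 4.35 and 1.51 CPM in the GFP-negative and 8.33 and 13.7 CPM in the GFP-positive libraries. The ranges did not overlap, and the log2 fold change was 1.88 ± 0.64 (adjusted p = 0.274). Rph3a, a Rab3 effector, ranged only from 68.0 to 82.4 CPM over all libraries.

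Of the 7 SNARE genes, 2 were lower and 2 higher in both GFP-positive libraries (21.3% and 22.5% of all tested genes), and 3 overlapped. Snap25, the plasma membrane SNARE of neuronal fusion, stood at 1006 and 1120 CPM in the GFP-negative and 1712 and 1457 CPM in the GFP-positive libraries, so both GFP-positive values were the higher ones (log2 fold change 0.58 ± 0.39, adjusted p = 0.593). Vamp2, the main vesicle SNARE, overlapped at 1470 and 2346 CPM against 1533 and 1116 CPM. Vamp4, a SNARE of endosomal trafficking and bulk endocytosis, stood at 162 and 264 CPM against 102 and 78.2 CPM, a log2 fold change of -1.24 ± 0.35 (adjusted p = 0.193). Stx1a, the syntaxin of conventional synapses, stood at 98.9 and 147 CPM against 64.5 and 59.9 CPM. Its log2 fold change was -0.98 ± 0.32 (adjusted p = 0.257). Stx3, the syntaxin of ribbon synapses, ran the other way at 414 and 174 CPM against 466 and 608 CPM, a log2 fold change of 0.87 ± 0.45 (adjusted p = 0.487). The gap within the GFP-negative fraction was wider for Stx3 than the gap between its nearest values across fractions. Snap23 (5.08 to 17.9 CPM) and Vamp1 (7.95 to 26.0 CPM) overlapped.

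Complexins are small proteins that clamp and then assist the assembled SNARE complex. Of the 4 genes, 2 were higher and 1 lower in both GFP-positive libraries (22.5% and 21.3% of all tested genes), and 1 overlapped. Cplx3 (chr9:57599992-57606281, GRCm38) stood at 258 and 152 CPM in the GFP-negative and 454 and 731 CPM in the GFP-positive libraries. Its log2 fold change was 1.53 ± 0.42 (adjusted p = 0.172), the smallest adjusted p of any member with a positive fold change. Cplx4, its close relative in photoreceptors, stood at 65.0 and 21.5 CPM against 69.5 and 109 CPM (log2 fold change 1.04 ± 0.50, adjusted p = 0.434). The libraries numbered 2 of the fractions were nearly level for Cplx4 but not for Cplx3. Beside these genes, the rod and bipolar marker sums given above were also higher in both GFP-positive libraries. So was the AII sum, but nearly all of its gap was Calb2. Of the other genes of that list Prox1 was higher in both, Dab1 was lower in both, and Gjd2 and Nfia overlapped. The part of bipolar and AII cells in the Cplx3 values was not tested. Cplx1 was at 85.4 and 139 CPM against 60.9 and 35.7 CPM, a log2 fold change of -1.21 ± 0.38 (adjusted p = 0.248). Cplx2 overlapped, at 137 and 115 CPM against 57.0 and 141 CPM (log2 fold change -0.35 ± 0.43, adjusted p = 0.798).

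Of the 10 vesicle proteins, 7 were lower in both GFP-positive libraries (21.3% of all tested genes), Sv2b was higher in both (22.5%) and 2 overlapped. Syn2, a synapsin that tethers reserve vesicles to the cytoskeleton (chr6:115134902-115282006, GRCm38), stood at 94.6 and 211 CPM in the GFP-negative and 50.4 and 35.1 CPM in the GFP-positive libraries. Its log2 fold change was -1.84 ± 0.43 (adjusted p = 0.106). Syn1, the more abundant synapsin, stood at 563 and 941 CPM against 509 and 232 CPM, so that GFP-positive replicate 2 lay close under the lower GFP-negative value. Syn3 overlapped between 6.47 and 25.9 CPM. Synpr, or synaptoporin, a relative of synaptophysin, stood at 422 and 1103 CPM against 273 and 107 CPM. That is a log2 fold change of -2.01 ± 0.59 (adjusted p = 0.207), with wide gaps inside each fraction. Syngr3, a synaptogyrin of the vesicle membrane, stood at 248 and 565 CPM against 185 and 161 CPM (log2 fold change -1.23 ± 0.43, adjusted p = 0.285). Syp itself ranged from 547 to 870.1 CPM, with both GFP-positive values under the GFP-negative ones by a small margin. Syngr1 overlapped between 147 and 188 CPM.

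The SV2 family, transporter-like vesicle glycoproteins that modulate release, held the most uneven library. Sv2a, found at most synapses, stood at 847 and 1588 CPM in the GFP-negative and 740.3 and 392 CPM in the GFP-positive libraries (log2 fold change -1.11 ± 0.48, adjusted p = 0.392). Sv2b stood at 234 and 36.1 CPM against 237 and 245 CPM, so that 3 libraries were level and GFP-negative replicate 6, the library with the least rod RNA, was far below them. Its log2 fold change was 0.84 ± 0.68 (adjusted p = 0.664), and it was 2.68 (adjusted p = 0.0286) without GFP-negative replicate 2 and 0.05 (adjusted p = 0.9997) without GFP-negative replicate 6. Each of these fits leaves 1 GFP-negative library, which is assumed to vary like the GFP-positive ones. Sv2c, the rarest of the members in the GFP-positive fraction, stood at 12.7 and 12.3 CPM against 3.54 and 0.71 CPM. The GFP-negative values agreed closely, and the log2 fold change of -2.56 ± 0.70 (adjusted p = 0.171) was the most negative of the 46.

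Rab3 GTPases, which ride on vesicles and recruit RIM proteins, had no adjusted p below 0.581. Rab3a was at 609 and 849 CPM in the GFP-negative and 567 and 582 CPM in the GFP-positive libraries (log2 fold change -0.34 ± 0.37, adjusted p = 0.760). Rab3b ranged from 37.7 to 73.7 CPM and Rab3c from 84.3 to 229 CPM.

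Of the 12 active zone genes, 5 were lower and 2 higher in both GFP-positive libraries (21.3% and 22.5% of all tested genes), and 5 overlapped. Rims2, which encodes the RIM scaffold dominant in photoreceptors, stood at 191 and 202 CPM against 126 and 112 CPM. It was thus lower in both GFP-positive libraries (log2 fold change -0.72 ± 0.30, adjusted p = 0.364), while 4 of the 5 other ribbon paralogs were higher in both. Rims1 overlapped at 97.3 and 123 CPM against 139 and 39.2 CPM (log2 fold change -0.30 ± 0.52, adjusted p = 0.863). Rims4, a short RIM isoform gene, was at 55.5 and 96.3 CPM against 40.1 and 24.5 CPM (log2 fold change -1.23 ± 0.39, adjusted p = 0.249). Rimbp2, which links RIMs to calcium channels, was at 24.9 and 23.1 CPM against 12.04 and 7.44 CPM, a log2 fold change of -1.30 ± 0.42 (adjusted p = 0.255). Pclo, the giant scaffold piccolo, was at 221 and 316 CPM against 147 and 143 CPM (log2 fold change -0.89 ± 0.33, adjusted p = 0.314). The Munc13 priming genes Unc13a and Unc13b both overlapped. Unc13a was at 57.0 and 53.8 CPM against 70.2 and 44.8 CPM (log2 fold change 0.05 ± 0.33, adjusted p = 0.974). Unc13b was at 160 and 91.5 CPM against 126 and 134 CPM (log2 fold change 0.05 ± 0.35, adjusted p = 0.979). Unc13c (12.2 to 29.2 CPM) and the liprin gene Ppfia2 (81.2 to 140.2 CPM) were higher in both GFP-positive libraries, with unadjusted p above 0.05. Bsn, which encodes bassoon, was lower in both (43.2 to 86.9 CPM), and Rims3 (37.9 to 87.2 CPM) and Erc2 (37.6 to 77.7 CPM) overlapped.

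The paralog classes had medians of opposite sign over all libraries, a difference that was not tested. Of the 6 ribbon paralogs, 5 had a positive log2 fold change and 4 were higher in both GFP-positive libraries (22.5% of all tested genes). The class median was 0.85. Of the 9 conventional paralogs, 8 had a negative log2 fold change and 5 were lower in both GFP-positive libraries (21.3% of all tested genes). The class median was -0.98. With the rod marker sum as a covariate the class medians were -0.22 for the ribbon and -0.25 for the conventional paralogs. In the 1 pair of libraries with the closest rod marker sums, described further on, they were 0.06 and -0.19. Both GFP-positive libraries held more rod RNA than both GFP-negative ones, so rod RNA and fraction cannot be told apart in the covariate fit. Each of the 6 gene ratios below was computed within a library from levels per kilobase of exon, so library scaling does not enter. Complexins 3 and 4 over complexins 1 and 2 gave a ratio of 1.81 and 0.72 in the GFP-negative and 4.81 and 6.76 in the GFP-positive libraries, a mean log2 difference of 2.32. Stx3 over Stx1a gave 1.95 and 0.55 against 3.37 and 4.74, a mean log2 difference of 1.94. Sv2b over Sv2a gave 0.15 and 0.013 against 0.18 and 0.35, a mean log2 difference of 2.50. These 3 ratios were higher in both GFP-positive libraries, with the smallest two-sided exact permutation p that the design allows, 0.333. Unc13b over Unc13a overlapped on the log2 scale, at 0.64 and -0.08 against -0.01 and 0.73 (exact permutation p = 0.667). Rims2 over Rims1 also overlapped, at log2 values of 0.48 and 0.22 against -0.65 and 1.02 (exact permutation p = 1). The 3 synapsins over Syp gave log2 values of 0.64 and 0.93 against 0.638 and -0.61, with the 2 libraries numbered 2 almost equal (exact permutation p = 0.333).

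**Figure D2:**
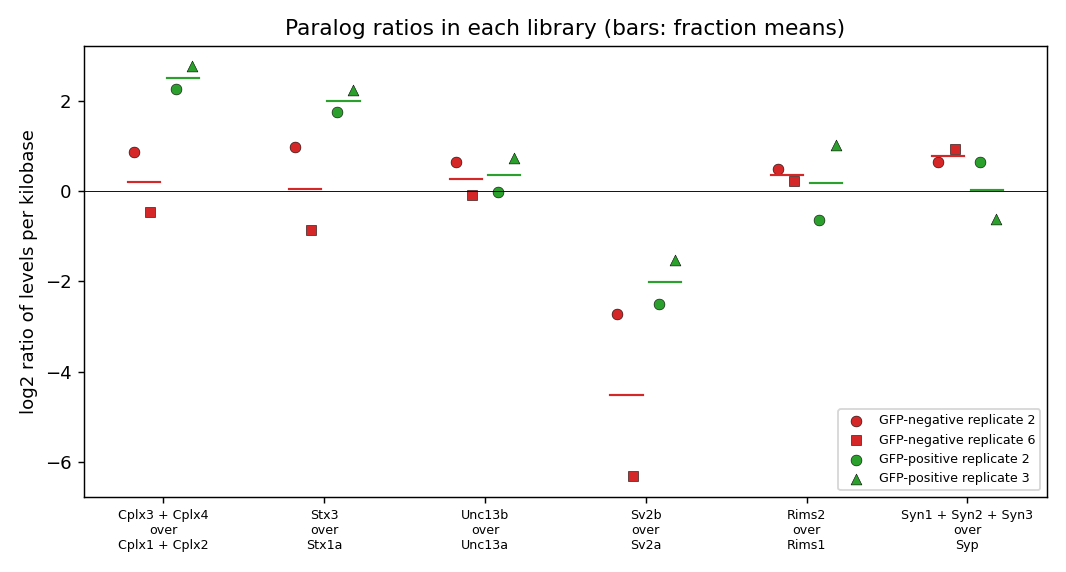
Log2 ratio of paralog levels per kilobase of exon in each library; points are libraries and short bars the mean of each fraction. The complexin and syntaxin ratios are higher in both GFP-positive libraries, the SV2 ratio is set apart by GFP-negative replicate 6, and the Munc13 and RIM ratios overlap.

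Rod RNA differed between libraries within a fraction as well as between fractions, so each member was also set against the order of the libraries by rod marker sum. That order was GFP-negative replicate 6, GFP-negative replicate 2, GFP-positive replicate 2 and GFP-positive replicate 3. Exactly this order was followed by 6 of the 46 members (Cplx3, Cplx4, Stx3, Sv2b, Doc2b and Ppfia2), a share near the 10.4% of all tested genes. Some places rest on near ties. Sv2b stood at 234, 237 and 245 CPM outside GFP-negative replicate 6, and Ppfia2 at 139.2 and 140.2 CPM in the GFP-positive libraries. The reverse order was followed by 18 members, among them Syt1, Syt4, Syt7, Syn1, Syn2, Sv2a and Synpr, against 11.3% of all tested genes. Without reference to fraction, 9 members were higher in the library with more rod RNA in both fractions (28.3% of all tested genes) and 26 were lower in it in both (28.5% of all tested genes). The summed level of the 46 members was 11559 and 17009 CPM in the GFP-negative and 10932 and 9061 CPM in the GFP-positive libraries, again the reverse of the rod order. The amacrine marker sum given above follows this reverse order too, as do the 5 called genes of that list. Not every gene of the list did, for instance Pax6, the most abundant of the uncalled ones, Slc6a9 and Tfap2a. The sum therefore does not stand for amacrine RNA as a whole.

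**Figure D3:**
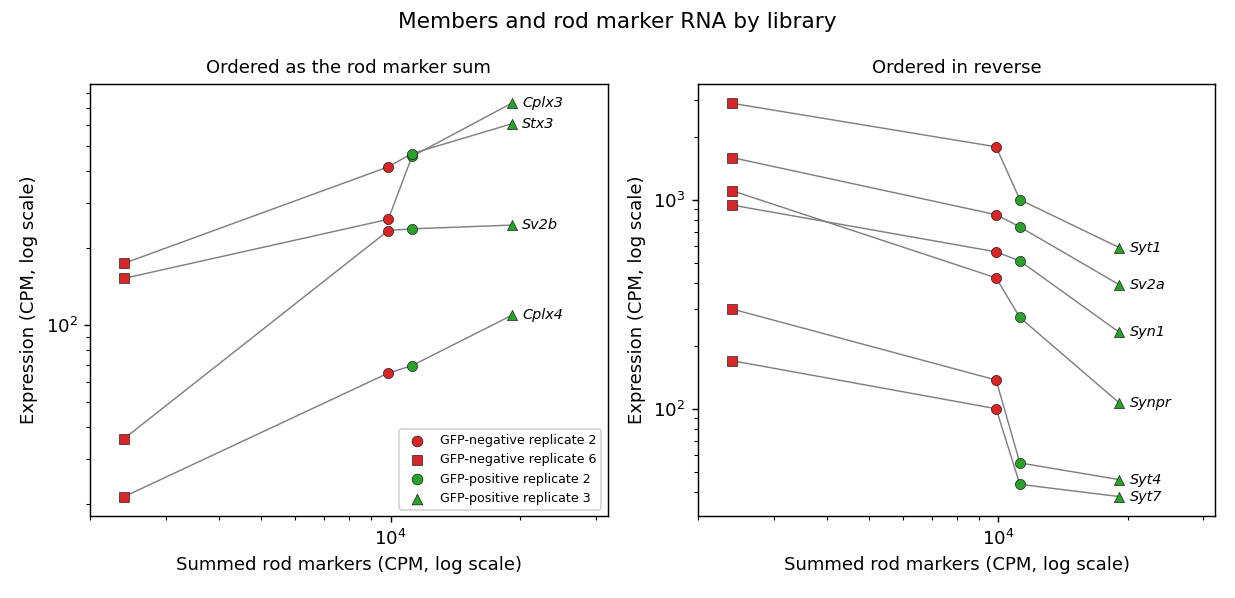
Level of 10 members against the summed level of 16 rod markers, both in CPM on log axes, with lines joining the libraries of each gene. The 10 were picked among members that follow the rod order or its reverse, so their ordering is given by that choice. Cplx3, Stx3, Sv2b and Cplx4 (left) are ordered upward from left to right and Syt1, Sv2a, Syn1, Synpr, Syt4 and Syt7 (right) downward, and the 2 libraries of replicate 2 stand side by side on the rod axis.

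GFP-negative replicate 2 and GFP-positive replicate 2 had nearly the same rod marker sum, with a ratio of 1.14 between them, while the ratio was 4.11 within the GFP-negative and 1.70 within the GFP-positive fraction. Both libraries are also numbered 2 and may come from the same animal, which cannot be told apart from their close rod RNA. In this pair, which has no replicate, the members' median log2 ratio was -0.14 and that of all tested genes -0.004. The pair also sits in the middle of the rod order. For members following that order or its reverse, its gap is therefore the smallest between fractions by construction. Cplx4 (0.10), Stx3 (0.17) and Sv2b (0.02) were close to level in this pair, and Cplx3 was not (0.81). The same 2 libraries had 1174 and 1415 CPM of bipolar markers and 444 and 386 CPM of cone markers. Syn1 (-0.14) and Sv2a (-0.19) were likewise close to level, while Syt1 (-0.84), Syt4 (-1.31), Syt7 (-1.19), Syn2 (-0.90) and Sv2c (-1.70) were not. Syt9 had a log2 ratio of 1.08 and Snap25 of 0.77. The complexin log2 ratio differed by 1.41 in this pair, the syntaxin ratio by 0.79 and the SV2 ratio by 0.22. The Munc13 ratio differed by -0.65, the RIM ratio by -1.13 and the synapsin ratio by -0.004. Cplx2, in the denominator of the complexin ratio, had a log2 ratio of -1.26 in this pair.

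**Figure D4:**
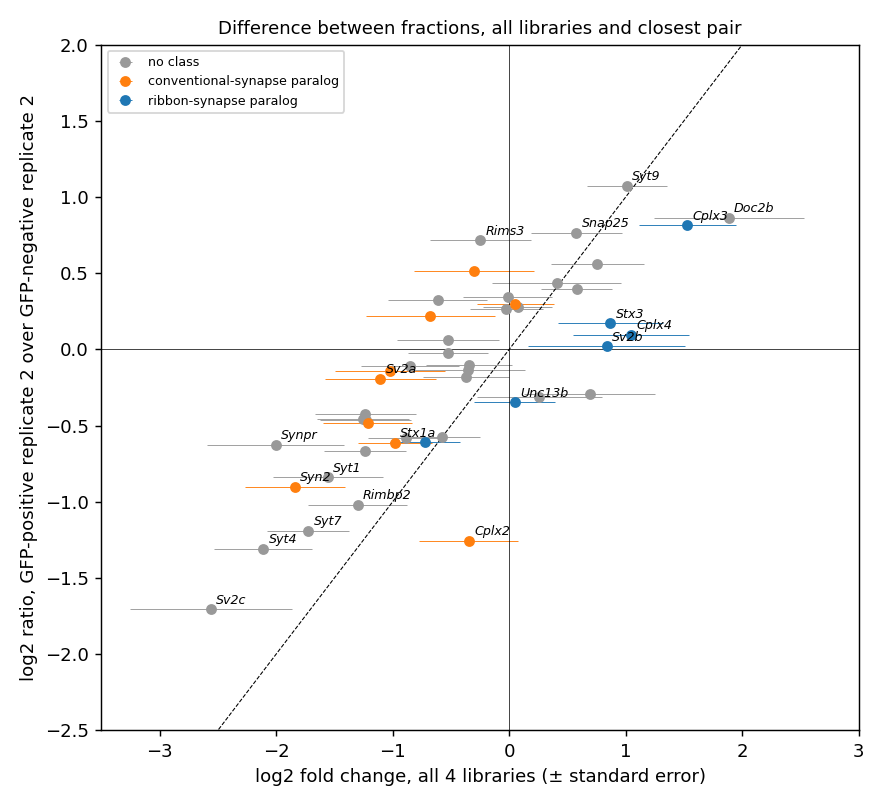
Log2 fold change over all 4 libraries with its standard error (x axis) against the log2 ratio in the 1 pair of libraries with the closest rod marker sums (y axis), for 46 genes coloured by paralog class; both axes use the 2 libraries of replicate 2, and the dashed line marks equal values. On the y axis Sv2b, Stx3 and Cplx4 lie near 0, Cplx3 at 0.81 against 1.53 on the x axis, and Syt4, Syt7 and Sv2c below -1 but nearer to 0 than on the x axis. For members ordered as the rod marker sum or in reverse, this pair is the smallest gap between fractions by construction.

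A fit with the log of the rod marker sum as a covariate, which leaves 1 residual degree of freedom, gave no member an adjusted p under 0.05. At an unadjusted p under 0.05 it held 3 members, against 5.75% of all tested genes. These were Syt4 with a log2 fold change of -1.17, Syt7 with -1.11 and Sv2c with -2.33, all lower in the GFP-positive fraction. Cplx3 had 0.85 in that fit and Syt1 -0.88. Cplx4 (-0.04) and Stx3 (0.04) were near 0 and Sv2b was negative (-0.41). The members' median was -0.17, compared with -0.45 without the covariate.

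Levels of different genes can be compared only per kilobase of exon. On that scale Vamp2 ranked first in the GFP-negative fraction at 501 ± 163 CPM per kilobase (SD, n = 2) and in the GFP-positive at 348 ± 77.4. Rab3a was the second in both, at 328 ± 76.3 and 258 ± 4.67. In the GFP-negative fraction Syt1 (280.1 ± 93.1), Sv2a (263 ± 113), Syn1 (228 ± 81.1) and Syngr3 (196 ± 108) followed and lay within each other's spread. In the GFP-positive fraction Snap25 (233 ± 26.6) and Cplx3 (201 ± 66.4) came next by their means, within each other's spread, before Sv2a (122 ± 53.2), Syn1 (112 ± 59.4) and Syp (110.2 ± 7.57). The mean of Cplx3 was thus at rank 4 of 46 in the GFP-positive fraction, where its spread overlapped those of Sv2a and Syn1. It was at rank 11 in the GFP-negative, where it had 69.5 ± 25.4. Syt1 was at rank 3 in the GFP-negative and rank 8 in the GFP-positive fraction, where it had 95.3 ± 34.8. At the lower end Doc2b (0.67 ± 0.46) and Syt2 (0.93 ± 0.36) ranked last in the GFP-negative fraction, and Sv2c (0.22 ± 0.21) in the GFP-positive.

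A further 66 genes of release and the vesicle cycle, outside the 46, were listed to show the rest of the pathway; 65 could be tested and none was called by edgeR. At an unadjusted p under 0.05 there were 9 lower and 3 higher in the GFP-positive fraction, where all tested genes had 7.34% and 5.24%. In both GFP-positive libraries 24 were lower and 11 higher, where all tested genes had 21.3% and 22.5%. Their median log2 fold change was -0.25. Stxbp5, which encodes tomosyn, an inhibitor of SNARE assembly, stood at 116 and 101 CPM in the GFP-negative and 453 and 274 CPM in the GFP-positive libraries (log2 fold change 1.75 ± 0.37, adjusted p = 0.0752). Rab27b, a GTPase of secretory and dense-core vesicles, stood at 22.5 and 49.7 CPM against 128 and 81.5 CPM (log2 fold change 1.54 ± 0.43, adjusted p = 0.185). Syt12 stood at 13.2 and 19.3 CPM against 3.85 and 2.31 CPM (log2 fold change -2.40 ± 0.53, adjusted p = 0.0889). Syt6 stood at 239 and 356 CPM against 42.4 and 4.71 CPM (log2 fold change -3.66 ± 0.82, adjusted p = 0.0915), with a wide gap between the 2 GFP-positive libraries. In edgeR Stxbp5 passed under upper-quartile scaling (adjusted p = 0.0398), library-size scaling (0.0366) and the filter of over 5 CPM (0.0324). Syt6 passed under RLE scaling (0.0484). DESeq2 called Stxbp5 (adjusted p = 1.97e-04) and Rab27b (0.0454) higher, where it called 1.16% of tested genes. It called Syt12 (8.26e-04) and Ppfia4 (0.0177) lower, against 3.23% of tested genes.

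The sequence before the start site is shown for 2 members that followed the order of rod RNA and 2 that followed its reverse, as the regions upstream of genes with opposite library orders. RefSeq windows on GRCm38.p6 matched 34 of the 46 members by symbol. Each run holds the 250 bases before the outermost listed start, 5′ to 3′ on the gene's strand, and capitals mark either of 2 motifs. For Syt1, 7 of these bases lie inside the gene as GENCODE places it. TAATCC, on either strand, is the core recognised by the photoreceptor and bipolar factors CRX and OTX2. CACGTG, its own reverse complement, is an E-box.
Cplx3 (chr9:57606282-57606531, minus strand): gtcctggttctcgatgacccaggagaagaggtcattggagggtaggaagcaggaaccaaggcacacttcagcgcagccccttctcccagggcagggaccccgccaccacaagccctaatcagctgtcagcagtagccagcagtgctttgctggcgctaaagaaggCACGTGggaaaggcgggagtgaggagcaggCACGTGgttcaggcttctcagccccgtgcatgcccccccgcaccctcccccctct
Sv2b (chr7:75309263-75309512, minus strand): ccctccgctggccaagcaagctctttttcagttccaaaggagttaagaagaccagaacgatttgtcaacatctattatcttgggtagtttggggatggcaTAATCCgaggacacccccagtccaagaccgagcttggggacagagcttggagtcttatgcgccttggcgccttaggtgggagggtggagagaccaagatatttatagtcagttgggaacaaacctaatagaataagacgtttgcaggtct
Syt1 (chr10:109010976-109011225, minus strand): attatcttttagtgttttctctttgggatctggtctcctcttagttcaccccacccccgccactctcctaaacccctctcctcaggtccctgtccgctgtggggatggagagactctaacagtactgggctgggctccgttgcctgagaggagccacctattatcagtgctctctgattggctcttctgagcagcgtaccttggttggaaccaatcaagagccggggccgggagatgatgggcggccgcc
Synpr (chr14:13284530-13284779, plus strand): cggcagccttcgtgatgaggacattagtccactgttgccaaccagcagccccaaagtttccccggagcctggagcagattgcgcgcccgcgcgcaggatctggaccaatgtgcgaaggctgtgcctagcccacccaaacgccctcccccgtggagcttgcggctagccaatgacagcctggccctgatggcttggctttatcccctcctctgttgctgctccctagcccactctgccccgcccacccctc
The Cplx3 window held CACGTG at 85 and at 55 bases before the start, and the Sv2b window held TAATCC at 150 bases before it. Neither motif was in the windows of Syt1 and Synpr, which says only that these letters are not there. TAATCC was in 6.25% and CACGTG in 6.02% of all 32851 windows, and in 5 and 4 of the 45 windows of the matched members. TAATCC was in windows of Ppfia2, Rims3, Sv2b and Syp. CACGTG was in windows of Cplx3, Unc13b, Vamp4 and Sv2b, for Sv2b at another of its 4 listed starts than the one shown. The windows were 62.8% G and C for Cplx3, 48.8% for Sv2b, 56.4% for Syt1 and 64% for Synpr.

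Some members share exon sequence with a neighbour on the other strand, and the sources used here do not say whether reads were counted by strand. Over 10% of the exon length was shared for Ppfia2 (24.5%, with Acss3 and C230021G24Rik), Syp (16.8%, with Gm14703), Syt4 (14.5%, with Gm26658) and Syn3 (14.1%, with Timp3), so their levels are uncertain to that extent.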

How the data were processed

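The authors deposited raw read counts per Ensembl gene for 4 libraries. The submitters' processing notes name Trimmomatic, STAR 2.7.3a, MultiQC, limma and the GRCm38 build, and do not name the counting program or strand setting. A second deposited table was not used. Counts were filtered with filterByExpr (minimum count 10, minimum total 15), scaled by TMM and tested with edgeR 4.0.16 in R 4.3.3 (quasi-likelihood test, robust, newer dispersion method), GFP-positive against GFP-negative, with Benjamini-Hochberg adjustment over 17940 genes and calls under 0.05. Standard errors come from the fold change and its F statistic. The fit was tested on simulated counts. DESeq2 1.42.0 and limma 3.58.1 were alternatives. Log2 ratios within a library pair added 0.5 CPM. Exon lengths and gene positions come from GENCODE M21, promoter windows from RefSeq (GRCm38.p6).

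The members, their classes, the pathway list and the marker lists were chosen with earlier results of these data known. Every member is named by its level. Fold changes with errors are given for members at an unadjusted p under 0.05 and for both genes of each paralog pair, and for the 2 pathway genes per direction with the smallest p. Fold changes printed for Snap25 and Rab3a were added after the data were seen.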

Additional observations from a re-analysis of the deposited data

How the results depend on the processing

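With 2 libraries a fraction, 1 library can decide a call, and rod RNA differs between fractions. The fit with rod RNA as a covariate leaves 1 residual degree of freedom. No paired analysis was possible because the fractions share only replicate number 2. The number of called genes was 198, and it became 106 with no filter on low counts, 787 with DESeq2, 92 with limma-voom, 48 with edgeR's older quasi-likelihood method (chosen after seeing the data), 1 with the rod covariate, and 1 to 336 when a library was left out (of the GFP-negative fraction, 336 without replicate 2 and 1 without replicate 6; of the GFP-positive fraction, 108 without replicate 2 and 5 without replicate 3). Called members went from 0 to 2 under RLE scaling, 2 under upper-quartile scaling, 1 under library size alone, 2 with over 5 CPM, 8 with DESeq2, and 0 to 4 with a library left out. The 4 came without GFP-negative replicate 2, a fit with 1 GFP-negative library, and were Syt4, Syt7, Syn2 (adjusted p = 0.0307) and Sv2b. Called pathway genes went from 0 to 1 under RLE, upper-quartile and library-size scaling and with over 5 CPM, 4 with DESeq2, and 0 to 1 with a library left out. With a library left out the mean log2 difference ranged from -0.29 to 0.46 for the Munc13 ratio, from -0.99 to 0.67 for the RIM ratio, from 1.66 to 2.99 for the complexin ratio, from 1.03 to 2.85 for the syntaxin ratio, from 0.70 to 4.30 for the SV2 ratio and from -1.39 to -0.15 for the synapsin ratio. Of the genes of the paralog pairs and those at an unadjusted p under 0.05, fold changes that changed sign were Cplx2 (-1.15 to 0.14), Unc13a (-0.33 to 0.34), Rims1 (-1.51 to 0.33) and Unc13b (-0.30 to 0.45, and -0.0037 without GFP-positive replicate 3) with a library left out. Over all 46 members the sign differed for 13 with the rod covariate, among them Cplx4 (-0.036), Sv2b (-0.41), Rims1 (0.27) and Unc13b (-0.47), and for 10 in the pair closest in rod RNA, among them Rims1 (0.52) and Unc13b (-0.35). The cause was not tested. Members with a positive fold change numbered 15 under TMM and RLE and 17 under upper-quartile and library-size scaling.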
